A study of Saccharomyces cerevisiae with 117 samples.

Results

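Among the 20 yeast cells that were starved of amino acids (AAS cells) and sequenced singly, 7 carried names that end in X (D26X, D91X, D93X, D94X, D95X, D96X and D97X) and the other 13 did not (D1, D3, D7, D9, D19, D20, D22, D23, D24, D27, D28, D29 and D30). The comparison below sets the 7 X-named cells against the 13 other AAS cells and describes how graded the starvation response was among cells of a single treatment. The series held 117 cells in all, and the meaning of the X was not stated in the labels or methods. Apart from D26X, the X-named cells are D91X to D97X, while the other AAS cells are named D1 to D30. The X can thus not be told apart from this run of names, which only D26X breaks. All cells came from a single clone of Saccharomyces cerevisiae S288C, a haploid laboratory strain, which was grown in YPD to mid-log phase and stripped of its cell wall with Zymolyase. The resulting spheroplasts were kept in S medium, which contains yeast nitrogen base, glucose and sorbitol. AAS cells, with or without an X, were kept in this medium without amino acids, and isotonic cells of the same sequencing batch, which serve as the unstarved background, were kept in it with amino acids. Of the 19 isotonic cells of that batch, the 16 that passed the library filters of the study were used. The length of exposure of each cell is not given, and because no separate cultures are named, each group was treated as 1 sample of cells and no p-value was computed.

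Yeast cells that lose amino acids stop investing in ribosomes: transcription of ribosomal protein genes and of the ribosome assembly factors falls when signaling through TORC1 and protein kinase A is lowered. The sulfur pathway takes up sulfate, reduces it to sulfide and builds methionine and cysteine, and its genes are switched on by Met4 with its DNA-binding partners Cbf1, Met31 and Met32 when methionine and cysteine run low. Both programs are therefore read as opposite arms of starvation, one that is shut down and one that is opened.

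As a group, the X-named cells held more reads of the ribosome program than the other AAS cells, and most of them fewer of the sulfur program. Without D95X and D96X the difference in ribosomal protein genes remained, while the share of sulfate assimilation and uptake genes that were at least 2-fold lower was no larger than that of all genes. Reads on ribosomal protein genes made up a median of 2.71% of a cell's reads on genes in X-named cells and 0.381% in other AAS cells, against 7.99% in isotonic cells. Genes of sulfate assimilation and sulfur amino acid synthesis took a median of 3.92% in X-named cells and 5.38% in other AAS cells, against 1.46% in isotonic cells. The shift was not shared by the 7 cells: D26X lay with the other AAS cells in both programs, whereas D95X and D96X, which the library filters of the study left out, lay nearest to the isotonic cells for ribosomal protein genes.

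The groups overlapped in depth and in the number of genes detected. X-named cells had between 4088125 and 8032494 reads on genes (median 7111840) and other AAS cells between 3112955 and 8502504 (median 5110554). Genes with a read numbered 2820 (D97X) to 5856 (D91X) in X-named cells, with a median of 4659, and 4211 (D28) to 5986 (D30) in other AAS cells, with a median of 5200. Thinned to 100000 reads per cell, the medians were 3563 genes in X-named cells, 4428 in other AAS cells and 2509 in the 16 isotonic cells. Spiked-in ERCC RNA took 0.115% to 9.26% of the reads on genes and spike-ins in X-named cells and 0.408% to 9.52% in other AAS cells. In the 16 isotonic cells it took at most 0.0023%. The part of depth and gene detection in the differences below was not tested beyond the thinned and adjusted values given at the end. No molecular identifiers were used, so reads of 1 gene in 1 cell are not independent molecules, and the intervals below cover counting error only. By level the marker genes fitted the mating type alpha of the strain. MF(ALPHA)1, the alpha-factor precursor, had reads in all 20 AAS cells. The median share of 4 alpha markers was 0.153% in X-named and 0.116% in other AAS cells. For 6 markers of mating type a it was 0% in X-named cells and 0.00451% in other AAS cells, where the highest share was 0.0137%. Of 4 a markers compared, 3 were at least 2-fold higher in other AAS than in isotonic cells, against 44.3% of all genes.

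Promoter sequences of 4 genes that carry the 2 opposite arms are shown here as windows of 250 bases that end 100 bases ahead of the start codon (RefSeq, R64 build). Capitals mark matches to the motifs named for each. MET10, a subunit of sulfite reductase, stands for the sulfate assimilation genes, with the Cbf1 core CACGTG and the Met31/Met32 core TGTGGC in capitals; its window lies on the plus strand of chrVI:212962-213211 and 12 of its bases are coding sequence of PTR3. JLP1, a sulfonate dioxygenase that frees sulfite from organic sulfur, is 1 of 3 sulfur genes that were higher in X-named cells, with TGTGGC or its reverse complement in capitals, on the minus strand of chrXII:27095-27344. RPS16A encodes a protein of the small ribosomal subunit and is shown with the Rap1 core CCNTACA in capitals, on the plus strand of chrXIII:551578-551827. NUG1 encodes a GTPase that is needed for export of the large subunit from the nucleus, and is shown with the RRPE core AAAAATTT (on the opposite strand) in capitals, on the plus strand of chrV:162373-162622, of which 70 bases are coding sequence of YND1.
MET10: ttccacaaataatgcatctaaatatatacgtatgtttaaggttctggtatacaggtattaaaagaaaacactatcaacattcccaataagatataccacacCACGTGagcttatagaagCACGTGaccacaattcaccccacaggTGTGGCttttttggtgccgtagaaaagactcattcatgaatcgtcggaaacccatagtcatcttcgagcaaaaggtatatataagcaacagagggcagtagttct
JLP1: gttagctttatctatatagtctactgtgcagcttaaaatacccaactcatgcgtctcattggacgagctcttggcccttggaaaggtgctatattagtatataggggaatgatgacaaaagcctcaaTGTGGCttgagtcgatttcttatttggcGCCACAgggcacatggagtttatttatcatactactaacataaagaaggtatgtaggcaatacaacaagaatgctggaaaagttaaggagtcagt
RPS16A: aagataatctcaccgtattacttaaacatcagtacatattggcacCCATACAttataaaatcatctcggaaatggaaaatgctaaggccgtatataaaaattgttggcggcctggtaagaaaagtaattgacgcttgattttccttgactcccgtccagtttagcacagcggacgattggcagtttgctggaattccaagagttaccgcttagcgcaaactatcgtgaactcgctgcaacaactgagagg
NUG1: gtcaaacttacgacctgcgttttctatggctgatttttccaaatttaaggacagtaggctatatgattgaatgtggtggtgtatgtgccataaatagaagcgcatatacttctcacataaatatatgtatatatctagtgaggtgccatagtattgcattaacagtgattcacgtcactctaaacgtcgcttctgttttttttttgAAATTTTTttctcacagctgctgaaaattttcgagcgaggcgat

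Each motif was searched on both strands of the same window of 5979 genes. CACGTG was found in 55% of the 20 sulfate assimilation windows and in 5.56% of the 18 windows of sulfur uptake genes, against 3.80% of all windows. TGTGGC was found in 55% of the sulfate assimilation windows and in 77.8% of the uptake windows, against 7.56% of all. The MET10 window held 2 copies of the Cbf1 core and 1 of the Met31/Met32 core, while the JLP1 window held 2 copies of the Met31/Met32 core and none of the Cbf1 core. The Rap1 core was found in 38.7% of 137 ribosomal protein windows (9.18% of all), and the RRPE core in 82.7% of 75 ribosome biogenesis windows (13.65% of all). These matches are a description of the letters.

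Ribosomal protein genes gave the clearest difference. Levels are read counts scaled to the total on genes (CPM), and a fold change is the log2 ratio of the mean CPM of both groups after adding 1 CPM to each, with a change of at least 2-fold counted as higher or lower. X-named cells had 124 of the 137 genes for ribosomal proteins at a higher level by this measure and none at a lower one. The median log2 fold change was 2.18. Among all 5904 genes compared 10.7% were higher and 27.7% lower, and the median was −0.32. Without D95X and D96X, 108 of the 137 were higher and the median was 1.65, with 10.4% of all genes higher and 26.8% lower. Without D26X, 127 were higher and the median was 2.39, with 11.1% of all genes higher and 33.4% lower.

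Among the most abundant of these genes, RPL3, a large-subunit protein at the peptidyl transferase center, had a lowest, median and highest level of 180, 2637 and 4201 CPM in X-named cells and of 0.191, 166 and 1087 CPM in other AAS cells. The groups overlapped for RPL3 through D26X, at 180 CPM, and D91X, and the X-named cell was higher in 92.3% of the 91 pairs of an X-named with another AAS cell (log2 fold change 3.07). RPL10, which joins the large subunit late in assembly, ranged over 371, 1331 and 3261 CPM in X-named cells and over 64.9, 320 and 1009 CPM in other AAS cells (log2 fold change 1.90). RPL5, which binds the 5S rRNA, ranged over 0, 562 and 1669 CPM in X-named cells and over 0, 39.9 and 341 CPM in other AAS cells (2.80). For RPS2, of the small subunit, the levels were 53.6, 366 and 963 CPM in X-named cells and 27.1, 148 and 587 CPM in other AAS cells, and its log2 fold change of 1.16 dropped to 0.65 without D95X and D96X. The 4 genes thus lay higher in X-named cells with overlap in each case. Over the whole list the fold changes ran up to 3.81 for RPS16A, which had 0.177, 82.4 and 595 CPM in X-named cells and 0, 10.6 and 95.3 CPM in other AAS cells. The lowest was −0.51 for RPS20, which was close to undetected in both groups with means of 0.0201 CPM in X-named cells and 0.457 CPM in other AAS cells. Many ribosomal protein genes come as near-identical pairs, and since reads that map to more than 1 place were not counted, the level of a single copy is uncertain.

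The cells formed a range rather than 2 sets. Ribosomal protein reads were 0.459% in D26X, 1.41% in D91X, 1.75% in D97X, 2.71% in D93X, 3.40% in D94X, 4.54% in D95X and 5.01% in D96X. In other AAS cells the lowest, median and highest shares were 0.153%, 0.381% and 1.62%, and in isotonic cells they were 4.10%, 7.99% and 19.5%. Thus 5 of the 7 X-named cells lay above all other AAS cells, D26X and D91X lay within their range, and D95X and D96X reached the range of isotonic cells. The means were 2.75 ± 1.67% in X-named cells (SD, n = 7) and 0.582 ± 0.454% in other AAS cells (SD, n = 13), so that the difference exceeded the SD of either group. Among the other AAS cells, D28 with 1.47% and D30 with 1.62% stood above the remaining 11, and these were the cells with the fewest and the most genes detected. A per-cell score, the mean of log2(CPM + 1) over the 137 genes, was 3.22 to 7.67 in X-named cells and 2.04 to 6.23 in other AAS cells. By this score 4 X-named cells lay above all other AAS cells, with D26X, D91X and D97X inside their range.

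**Figure D1:**
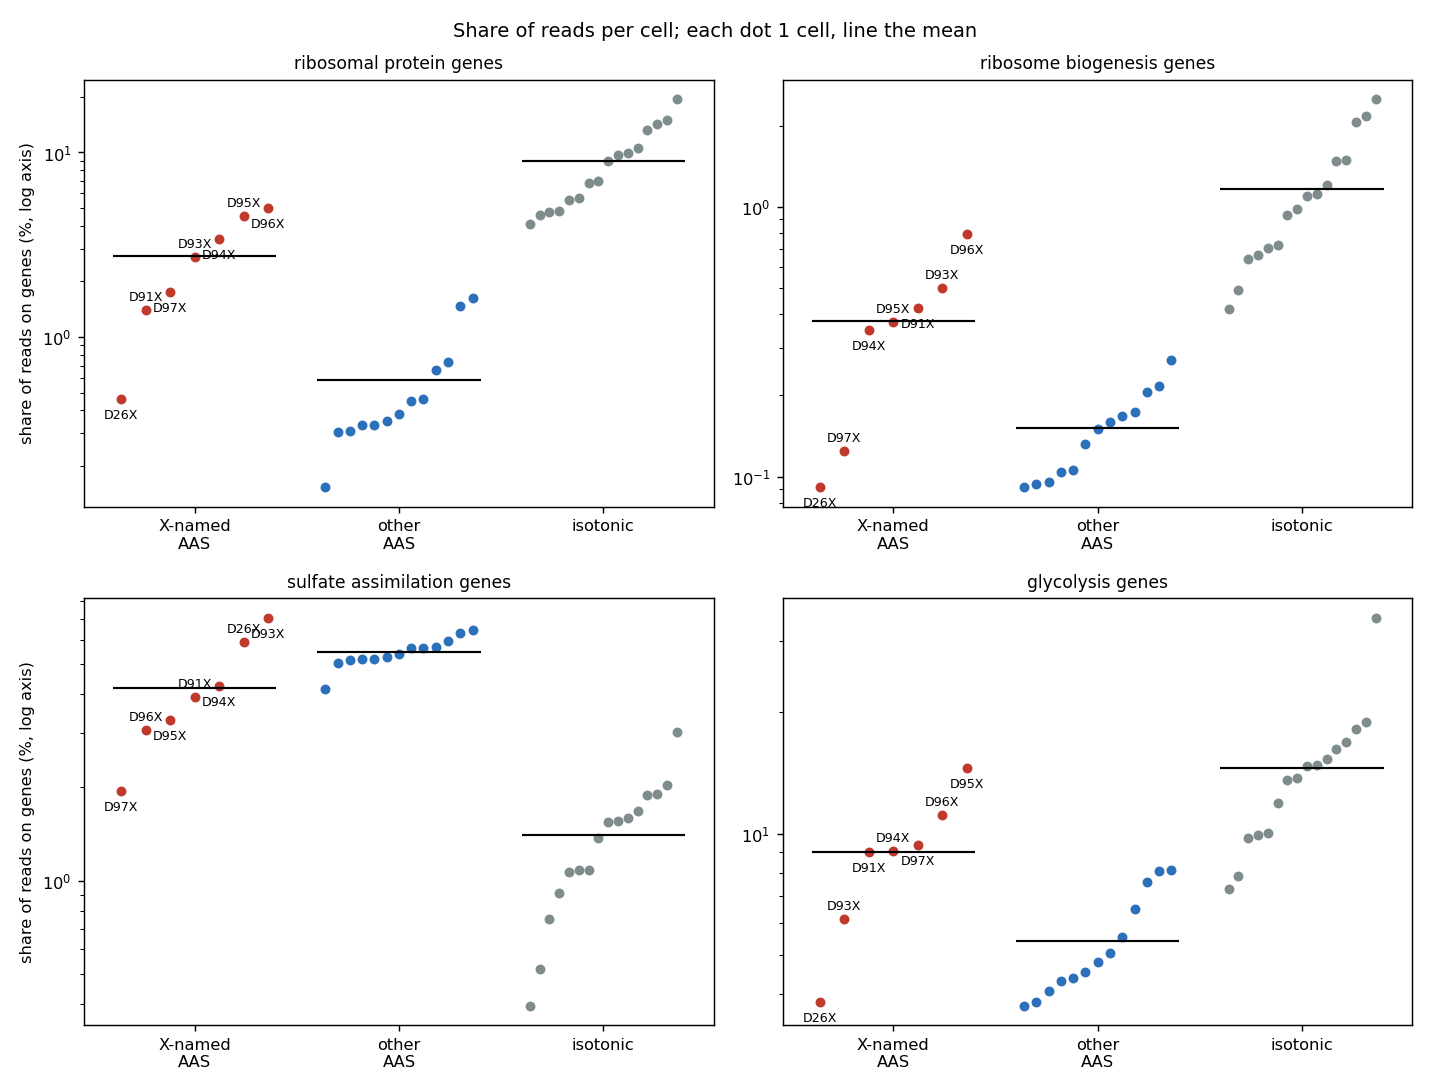
Share of each cell's reads on genes (%, log axis) taken by 4 gene lists in X-named AAS, other AAS and isotonic cells; each dot is 1 cell, cells are sorted by value within a group, and the line is the group mean. For ribosomal protein genes 5 of 7 X-named cells lie above all other AAS cells, and for sulfate assimilation genes 4 of 7 lie below them.

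Factors that build the ribosome followed the ribosomal proteins. Against 10.7% of all genes higher and 27.7% lower, 43 of 75 ribosome biogenesis genes were at least 2-fold higher in X-named cells and 3 lower. The median log2 fold change of these 75 genes was 1.35, with 1.02 without D95X and D96X and 1.50 without D26X. Their share of reads had a lowest, median and highest value of 0.0913%, 0.376% and 0.790% in X-named cells and 0.0915%, 0.150% and 0.270% in other AAS cells, against 0.418%, 1.04% and 2.51% in isotonic cells. By this share 5 X-named cells lay above all other AAS cells and D26X lay just below them. D97X, at 0.125%, lay within their range. By the score, the mean of log2(CPM + 1) over the list, 2 X-named cells lay above all other AAS cells, 1 below, and D26X, D93X, D94X and D95X within their range.

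NUG1, whose promoter is shown above, was 1 of 3 genes, out of all those compared, whose level in each of the 7 X-named cells exceeded that in each of the 13 others (0.0508% of genes). It had 64.4, 111 and 721 CPM (lowest, median, highest) in X-named cells and 0, 2.25 and 49.4 CPM in other AAS cells, with a mean ± SD of 259 ± 249 CPM (n = 7) and 15.4 ± 19.5 CPM (n = 13) and a log2 fold change of 3.98. It had reads in 7 of 7 X-named cells and in 8 of 13 others, and 11796 summed reads in X-named cells against 1092 in other AAS cells (exact Poisson 95% intervals 11584 to 12011 and 1028 to 1159). NOP58, a core protein of box C/D snoRNPs, which guide methylation of rRNA, had 3.36, 129 and 554 CPM in X-named cells and 0, 3.13 and 84.4 CPM in other AAS cells (3.48). CBF5, the pseudouridine synthase of box H/ACA snoRNPs, had 0, 70.2 and 995 CPM in X-named cells and 0, 63.6 and 264 CPM in other AAS cells, so that its log2 fold change of 1.76 came from few cells and its medians were alike. TIF6, which keeps the subunits apart during assembly, had a log2 fold change of −0.37 with 8.50, 84.7 and 240 CPM in X-named cells and 10.5, 128 and 235 CPM in other AAS cells.

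Of the 10 genes with the highest log2 fold changes that stayed at least 2-fold higher without the highest cell of each group and without D95X and D96X, ENP2, DBP2, SPB1, ENP1, NUG1, HAS1 and NOC2 are known from ribosome assembly, which was read off after the genes were seen and is a description of these 10. Apart from NUG1, the signal sat in few cells. ENP2, a small-subunit processing factor, had reads in 2 of 7 X-named cells, at 52.3 CPM in D91X and 305 CPM in D96X, and in 2 of 13 other AAS cells with a highest level of 5.17 CPM (log2 fold change 5.20). The RNA helicase DBP2 had 0, 41.8 and 304 CPM in X-named cells and 0, 0 and 17.1 CPM in other AAS cells (4.54), and ENP1 had 0, 26.3 and 215.2 CPM in X-named cells and 0, 0 and 22.6 CPM in other AAS cells (4.20). SPB1, which methylates rRNA, had 0, 32.9 and 210 CPM in X-named cells and 0, 0.191 and 19.8 CPM in other AAS cells (4.28). HAS1, an RNA helicase, reached 312 CPM in X-named cells with a median of 2.03 and 28.2 CPM in other AAS cells with a median of 0.447 (3.91), and NOC2 reached 535 and 46.4 CPM with both medians at 0 (3.87). Single cells moved these values: ENP2 stood at 2.78 and HAS1 at 2.25 without D96X, and NOC2 at 1.57 without D93X. The cells behind the signal differed from gene to gene: DBP2 was highest in D94X, SPB1 and ENP2 in D96X, and ENP1 in D94X. The remaining 3 genes were RKI1, of the pentose phosphate pathway (4.20), GUA1, GMP synthase (4.01, or 2.14 without D93X), and JLP1 (4.10).

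The 8 genes of RNA polymerase I, which transcribes rRNA, moved in no common direction, with 3 higher and 2 lower (median 0.16). Of all genes compared, 10.7% were higher and 27.7% lower. The subunit RPA190 had 0, 2.86 and 784 CPM in X-named cells and 0, 2.35 and 234 CPM in other AAS cells (1.98), and RPA135 had 0, 0.177 and 467 CPM in X-named cells and 0, 3.44 and 150 CPM in other AAS cells (2.50). The initiation factor RRN3 had 0, 1.90 and 69.3 CPM in X-named cells and 0, 78.6 and 237 CPM in other AAS cells and fell by 2.81 on the log2 scale. RPA49 had a log2 fold change of −1.15, which was 2.17 without D28, the cell that held 641 CPM.

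Of 17 elongation and ribosome-associated factors 13 were higher and none lower (median 1.41), with 7 higher and a median of 0.92 without D95X and D96X. Of 24 initiation factors 7 were higher and 2 lower (median 0.74), with 4 higher and a median of 0.31 without D95X and D96X. Over all genes 10.7% were higher and 27.7% lower, and 10.4% and 26.8% without D95X and D96X. By share of reads, 4 of 7 X-named cells lay above all other AAS cells for both lists, and the difference between the lists was not tested. The ribosome-associated chaperone SSB2 had 8.33, 1574 and 3042 CPM in X-named cells and 60.6, 215.6 and 380 CPM in other AAS cells (2.78). STM1, which holds idle ribosomes together and was chosen here after its values were seen, had 2.69, 335 and 1138 CPM in X-named cells and 0, 23.0 and 231 CPM in other AAS cells (3.21); the 2.69 CPM belonged to D26X and all 6 cells D91X to D97X exceeded all other AAS cells. The elongation factor genes TEF1 and TEF2, which encode the same protein, had log2 fold changes of 1.09 and 0.81. YEF3, a fungal elongation factor, had 10.3, 531.96 and 5173 CPM in X-named cells and 207.9, 355 and 1157 CPM in other AAS cells, and its 1.62 rested on D96X (0.84 without it). Among initiation factors, FUN12, which joins the subunits, had 619, 696 and 1580 CPM in X-named cells and 64.8, 329 and 829 CPM in other AAS cells (1.34), while PAB1 (0.81), RPG1 (0.98) and TIF34 (0.72) did not reach 2-fold, and without D96X PAB1 stood at −0.18 and RPG1 at −0.08.

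**Figure D2:**
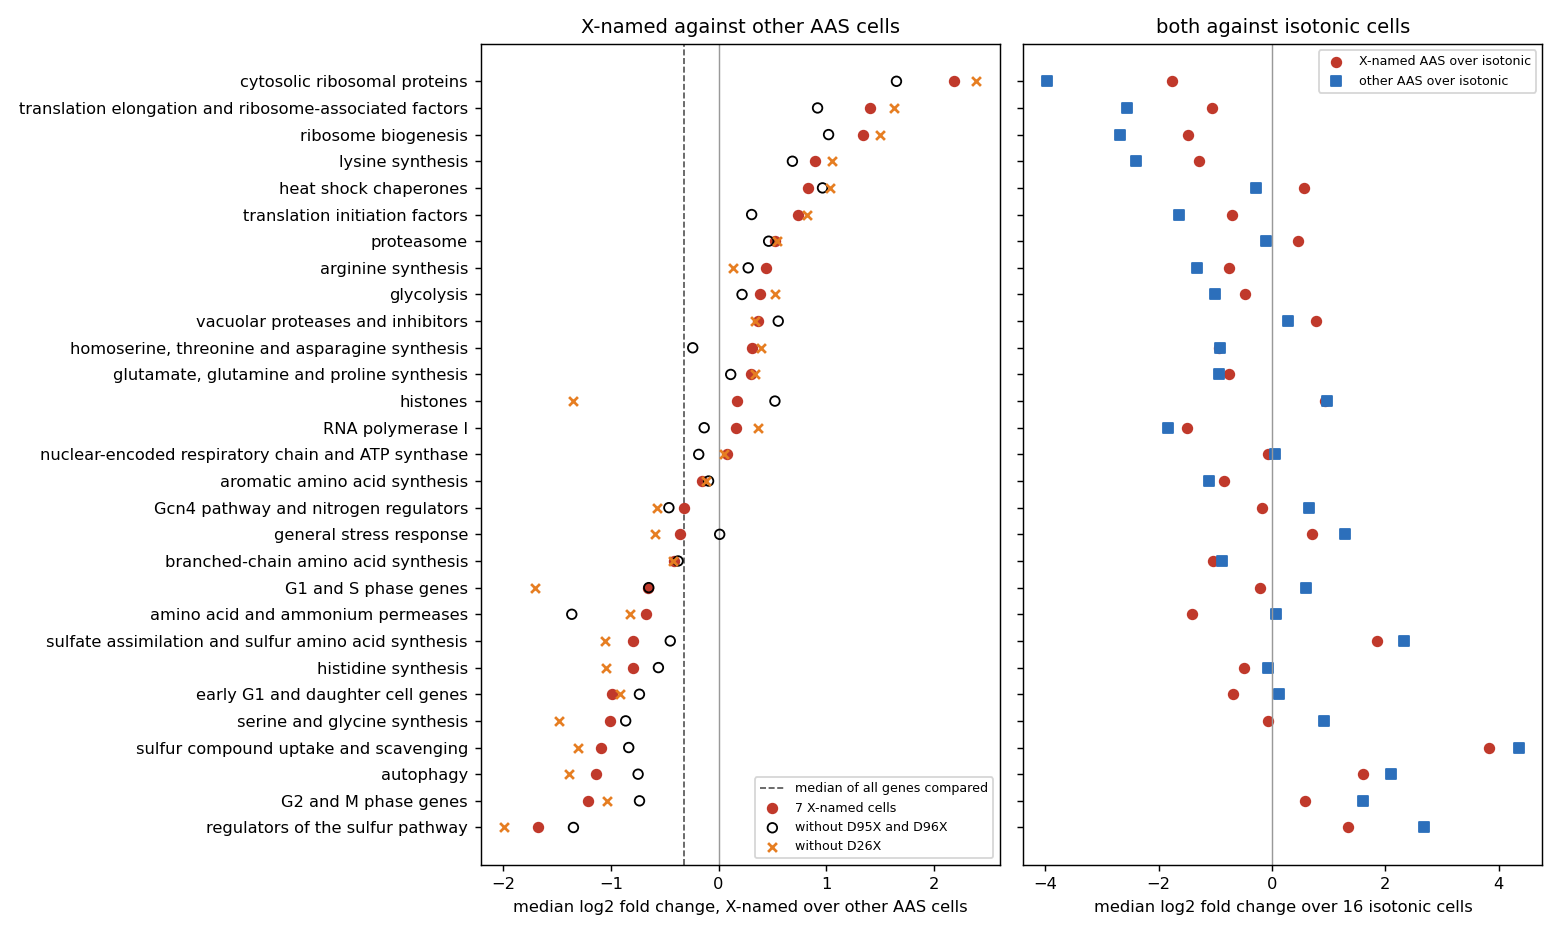
Left, median log2 fold change of each gene list in X-named over other AAS cells, for all 7 X-named cells (filled), without D95X and D96X (open) and without D26X (crosses); the dashed line is the median of all genes compared, −0.32. Right, the medians of X-named and of other AAS cells over the same 16 isotonic cells; ribosomal protein genes stood at −1.77 in X-named and −3.97 in other AAS cells.

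Set beside the isotonic cells, ribosomal protein genes were lower in both groups of AAS cells and less so in X-named cells. In X-named over isotonic cells 125 of 137 were at least 2-fold lower and none was higher (median −1.77), with 18.5% of all genes compared lower and 31.7% higher. Without D95X and D96X 128 were lower (median −2.35), with 19.9% of all genes lower and 33.7% higher. In other AAS over isotonic cells 134 were lower and 1 higher (median −3.97), with 14.3% of all genes lower and 44.3% higher. Ribosome biogenesis genes had medians of −1.47 in X-named and −2.69 in other AAS cells, and elongation factors −1.05 and −2.55. The same isotonic cells stand in these comparisons, so these pairs of values are given side by side only. Counted per cell, 95 (D96X) to 133 of the 137 ribosomal protein genes lay below the isotonic median in X-named cells and 128 to 134 in other AAS cells. D95X, with 104, and D96X were the X-named cells with the fewest, while D26X and D91X had 133 each.

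The sulfur genes went the other way. Of 20 genes of sulfate assimilation and sulfur amino acid synthesis 9 were at least 2-fold lower in X-named cells and 1 higher (median −0.80), of 18 genes for uptake and scavenging of sulfur compounds 11 were lower and 2 higher (median −1.09), and of 6 regulators of the pathway 5 were lower (median −1.68). These counts are to be read against the 27.7% of all genes compared that were lower. Without D95X and D96X, 5 of the 20 and 4 of the 18 were lower (medians −0.45 and −0.83, against −0.29 for all genes, of which 26.8% were lower), so that neither list then exceeded the share of all genes. Without D26X, 11 of each list were lower (medians −1.05 and −1.30, against −0.45 for all genes, of which 33.4% were lower). The regulators stayed at 5 of 6 lower, with a median of −1.35 without D95X and D96X and −1.99 without D26X.

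MET1, which makes the siroheme cofactor of sulfite reductase, had 113, 757 and 2836 CPM in X-named cells and 2048, 3659 and 4450 CPM in other AAS cells (log2 fold change −1.69). STR3, a cystathionine beta-lyase on the way from cysteine to methionine, had 7.26, 114 and 905 CPM in X-named cells and 644, 986 and 2136 CPM in other AAS cells (−2.12). In both genes, chosen after their values were seen, D26X was the highest X-named cell and the other 6 lay below all other AAS cells. MET3, ATP sulfurylase, the enzyme of the first step after uptake, had 143, 497 and 1728 CPM in X-named cells and 96.7, 1633 and 5251 CPM in other AAS cells (−1.86), with wide overlap. MET10 had 140, 930 and 9371 CPM in X-named cells and 2233, 5440 and 9316 CPM in other AAS cells (−0.87). Its levels were 5290 CPM in D26X, 2661 CPM in D91X and 9371 CPM in D93X, within or above the range of other AAS cells, and at most 930 CPM in the remaining 4.

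At the end of the pathway the mean levels of MET17, MET6 and SAM2 differed by less than 2-fold. For MET17 and for MET6, 3 X-named cells lay below all other AAS cells and 1 above. The X-named cell was higher in 36.3% of pairs for MET17 and in 35.2% for MET6. MET17, which joins sulfide to O-acetylhomoserine to give homocysteine, had 4040, 8679 and 17248 CPM in X-named cells and 6615, 10607 and 12604 CPM in other AAS cells (−0.14); it overlaps YLR302C by 12 bases. MET6, methionine synthase, had 3810, 8344 and 19370 CPM in X-named cells and 7696, 9646 and 12913 CPM in other AAS cells (−0.04). SAM2, which makes S-adenosylmethionine, had a log2 fold change of −0.56. The gene of the list that was higher in X-named cells was SAH1 (1.11), which breaks down S-adenosylhomocysteine, and it was also the gene whose log2 fold change in other AAS over isotonic cells was the lowest of the 20 (−1.50).

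Transporters spread more widely. SUL1, the high-affinity sulfate permease, had 1135, 2206 and 8309 CPM in X-named cells and 1222, 2849 and 7179 CPM in other AAS cells (−0.13), against a mean of 14.6 CPM in isotonic cells, so that its log2 fold changes over isotonic cells were 7.66 in X-named and 7.79 in other AAS cells. The arylsulfatase gene BDS1 had a similar mean in both groups, with 1081, 2193 and 5297 CPM in X-named cells and 299, 1138 and 6882 CPM in other AAS cells (0.05). The methionine permease MUP1 had 147, 814 and 3476 CPM in X-named cells and 948, 3151 and 5053 CPM in other AAS cells (−1.12), and the S-adenosylmethionine permease SAM3 had 377, 1014 and 2623 CPM in X-named cells and 1557, 2667 and 4590 CPM in other AAS cells (−1.02). MHT1, which recycles S-methylmethionine, had 0, 82.4 and 663 CPM in X-named cells and 251, 477 and 883 CPM in other AAS cells (−1.35).

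JLP1 ran against its list. It had 0.135, 115 and 3653 CPM in X-named cells and 0, 40.03 and 264 CPM in other AAS cells (log2 fold change 4.10). The level was 3653 CPM in D95X, 2198 CPM in D97X and 867 CPM in D93X, above all other AAS cells, and 115 CPM or less in the remaining 4 X-named cells. SOA1, a transporter of sulfonates and other inorganic and organic sulfur, had 0, 28.3 and 2343 CPM in X-named cells and 38.96, 91.7 and 540 CPM in other AAS cells; its 1.36 rested on D97X, at 2343 CPM, and was −1.002 without that cell. YNR064C, chosen from earlier results for its high level in AAS cells, had 0, 444 and 1265 CPM in X-named cells and 0, 0.191 and 130 CPM in other AAS cells (3.87), with D93X, D95X, D96X and D97X above all others.

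Among the regulators, MET30, part of the ubiquitin ligase that restrains Met4, had 0, 297 and 597 CPM in X-named cells and 394, 898 and 1533 CPM in other AAS cells (−1.73). CBF1 had 0, 16.7 and 162 CPM in X-named cells and 104, 175 and 349 CPM in other AAS cells (−2.001), and MET32 had 0, 116 and 666 CPM in X-named cells and 298, 488 and 756 CPM in other AAS cells (−1.15). MET4 itself had 0, 186 and 265 CPM in X-named cells and 32.2, 171 and 583 CPM in other AAS cells (−0.58). Each of the 4 genes had reads in 6 of 7 X-named cells (exact Clopper-Pearson 95% interval 42.1% to 99.6%) and in 13 of 13 other AAS cells (75.3% to 100%).

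**Figure D3:**
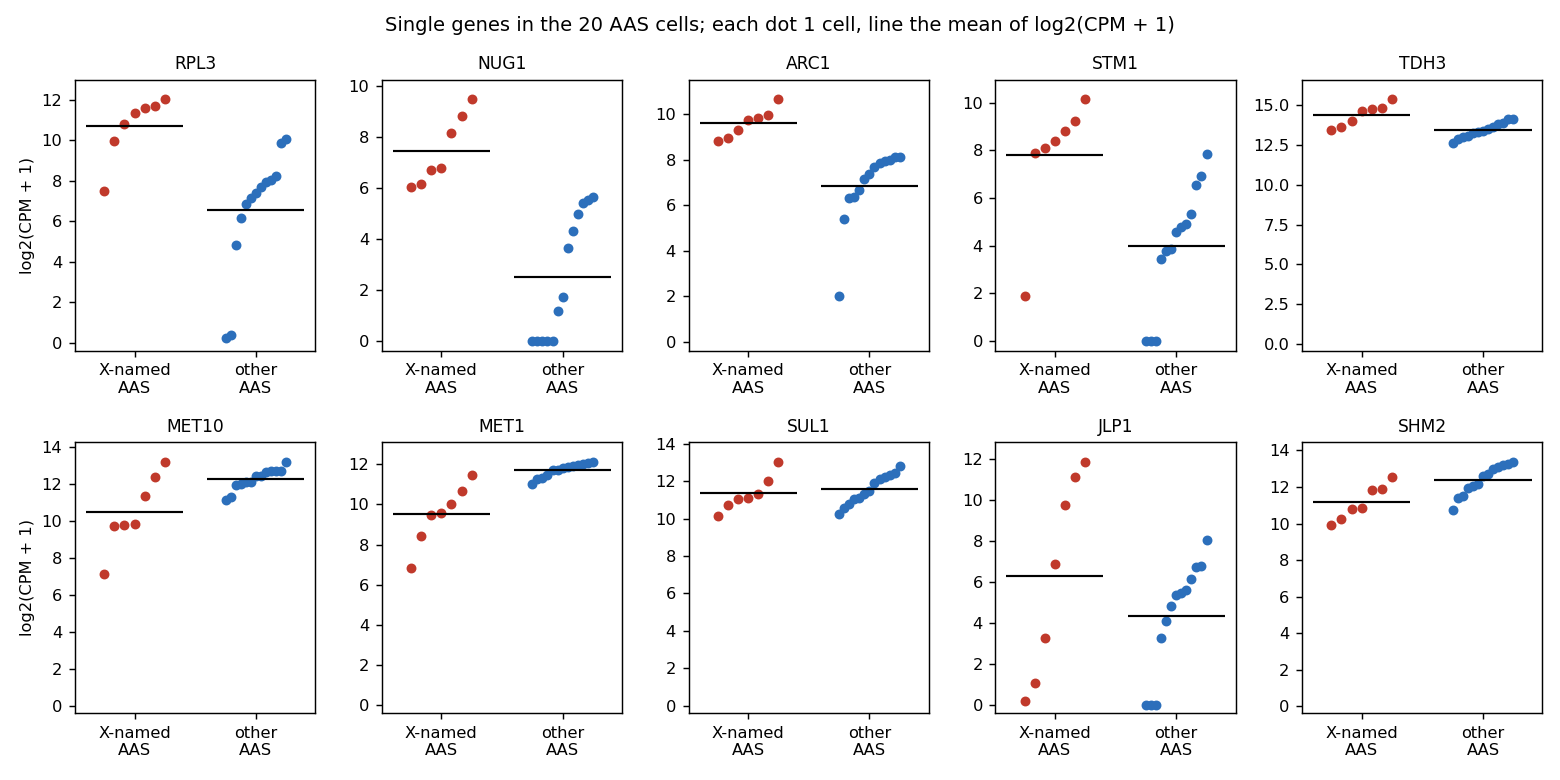
Level of 10 genes in the 20 AAS cells, as log2(CPM + 1); each dot is 1 cell, cells are sorted by value within a group, and the line is the mean of the dots. RPL3, NUG1, ARC1, STM1 and TDH3 lie higher in X-named cells, MET1 and SHM2 lower, SUL1 alike, and JLP1 is high in 3 X-named cells.

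By cell, the list of sulfate assimilation and sulfur amino acid synthesis genes ran between the levels of isotonic and of other AAS cells in most X-named cells. The share of reads on sulfate assimilation genes was 1.95% in D97X, 3.06% in D96X, 3.30% in D95X, 3.92% in D91X, 4.24% in D94X, 5.88% in D26X and 7.05% in D93X. It was 4.16% to 6.43% in other AAS cells and 0.394% to 3.03% in isotonic cells, so that 4 X-named cells lay below all other AAS cells, D93X above them, and D97X within the isotonic range. The score over the 20 genes was placed between the isotonic mean (0%) and the mean of the other AAS cells (100%): X-named cells lay at 38.9% (D97X), 60.8% (D96X), 68.0% (D95X), 70.3% (D94X), 87.8% (D91X), 96.1% (D93X) and 100.4% (D26X). For uptake and scavenging genes the same measure was lowest in D96X at 44.8%, had a median of 76.7% and was highest in D93X at 99.0%. For ribosomal protein genes, which go down, it was lowest in D96X at 3.16%, had a median of 30.8% and was highest in D26X at 116.5%. Thinned to equal depth, isotonic cells had fewer genes detected than other AAS cells at the median. The part of gene detection in this placing was not tested. The order of the cells was not the same in both programs: D93X was near the other AAS cells for sulfur genes and at 30.8% of the way for ribosomal protein genes, while D97X was at 38.9% and 85.0%. Of 38 sulfate and uptake genes, 8 (D95X) to 24 (D26X) exceeded all 16 isotonic cells in X-named cells and 19 to 25 in other AAS cells, where 6.22% to 14.3% of all genes did so in X-named cells and 11.1% to 16.1% in other AAS cells.

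Across the 20 AAS cells, the ribosomal protein share and the sulfate assimilation share had a Pearson r of −0.55 (Spearman −0.35), but within the 13 other AAS cells r was −0.33 (Spearman 0.19) and within the 7 X-named cells −0.32 (Spearman −0.36). The share of ribosomal protein reads followed that of glycolysis more closely (r = 0.84 over 20 cells, 0.69 over the 13 and 0.77 over the 7). The sulfate assimilation score followed the number of genes with a read (r = 0.78 over 20 cells, 0.89 over the 13 and 0.66 over the 7), while for the ribosomal protein score these values were −0.22, 0.29 and 0.11. The ribosomal protein share had an r with the reads on genes of a cell of 0.62 over 20 cells, 0.30 over the 13 and 0.80 over the 7. These are descriptions of cells that share a total, since shares of 1 library sum to the whole and scores depend on how many genes were detected.

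Genes for making the other amino acids did not move as a block. In X-named cells 3 of 9 lysine genes were higher and none lower (median 0.89), 1 of 9 arginine genes was higher and 3 lower (0.44), 5 of 13 aromatic genes were higher and 4 lower (−0.15), 2 of 11 branched-chain genes were higher and 3 lower (−0.41), 3 of 7 histidine genes were lower (−0.80), and 1 of 7 serine and glycine genes was higher and 4 lower (−1.01). Homoserine, threonine and asparagine genes (2 of 8 higher, 1 lower, median 0.31) and glutamate, glutamine and proline genes (2 of 7 higher, 1 lower, median 0.30) lay near zero. Among all genes compared 10.7% were higher and 27.7% lower, with a median of −0.32. The arginine, aromatic and branched-chain counts of lower genes lay near that share.

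For lysine, the pathway's first enzyme, homocitrate synthase LYS20, had 74.1, 1888 and 6033 CPM in X-named cells and 69.1, 175 and 3239 CPM in other AAS cells (2.33), and the late enzyme LYS9 had 0, 2854 and 7271 CPM in X-named cells and 42.02, 193 and 7859 CPM in other AAS cells (1.89). Among other AAS cells D28 held the highest level of both, and without it the log2 fold changes were 3.38 for LYS20 and 3.75 for LYS9. Lysine genes were lower than in isotonic cells in both groups, with medians of −1.28 in X-named and −2.40 in other AAS cells. CPA1, a subunit of the arginine-specific carbamoyl phosphate synthetase, had 1827, 2380 and 3415 CPM in X-named cells and 158, 914 and 3096 CPM in other AAS cells (1.28). The aromatic aminotransferase ARO8 had 418, 1146 and 1992 CPM in X-named cells and 138, 274 and 560 CPM in other AAS cells (1.74). HIS4 of histidine synthesis had 7.62, 388 and 899 CPM in X-named cells and 266, 1124 and 2795 CPM in other AAS cells (−1.43).

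Serine and glycine genes, which feed one-carbon units and the carbon of cysteine, were lower in 4 of 7 cases, as given above. SHM2, serine hydroxymethyltransferase, had 960, 1880 and 5881 CPM in X-named cells and 1704, 6144 and 10597 CPM in other AAS cells (−1.17). SER33, the main 3-phosphoglycerate dehydrogenase, had 382, 1391 and 5527 CPM in X-named cells and 2243, 3893 and 5525 CPM in other AAS cells (−1.01), and its isoenzyme SER3, whose gene overlaps the noncoding SRG1 by 77 bases, had 0, 165 and 1608 CPM in X-named cells and 367, 1215 and 3417 CPM in other AAS cells (−1.84). By the score of this list 6 of 7 X-named cells lay below all other AAS cells, with D91X inside their range. The list stood at a median of −0.07 over isotonic cells in X-named cells and of 0.92 in other AAS cells, where all genes compared stood at 0.30 in X-named and 0.76 in other AAS cells.

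The regulators of general amino acid control differed little at the level of RNA. GCN4, whose protein is controlled by translation, had 25.7, 364 and 1197 CPM in X-named cells and 124, 354 and 747 CPM in other AAS cells (0.21), and 3 of 9 genes of the Gcn4 and nitrogen regulator list were lower (median −0.32). One of these was GAT1, an activator of nitrogen-responsive genes, with 23.2, 98.5 and 386 CPM in X-named cells and 114, 324 and 1215 CPM in other AAS cells (−1.85). Of 17 amino acid and ammonium permeases 1 was higher and 7 lower (median −0.67), against 27.7% of all genes lower. When D95X and D96X were left out, 11 of the 17 were lower (median −1.36), against 26.8% of all genes. The branched-chain permease BAP2 had 0, 30.9 and 321 CPM in X-named cells and 102, 339 and 678 CPM in other AAS cells (−2.04). The ammonium permease MEP1 was the gene that was higher, with 228, 342 and 951 CPM in X-named cells and 1.12, 199 and 536 CPM in other AAS cells (1.11), and the general permease GAP1 had a log2 fold change of −0.26.

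Genes of the general stress response were not lower as a list beyond the background, with 12 of 40 lower and 1 higher (median −0.36, 0.01 without D95X and D96X). That background was 27.7% of all genes lower and 10.7% higher, with a median of −0.32. HSP12, a small membrane-protecting heat shock protein, had 858, 2084 and 5613 CPM in X-named cells and 930, 2031 and 4324 CPM in other AAS cells (0.19). GRE1, a hydrophilin, had 0.137, 613 and 2684 CPM in X-named cells and 32.3, 401 and 1156 CPM in other AAS cells, and its 0.96 was 0.24 without D97X and −0.90 as a difference of mean log2(CPM + 1). The cytosolic chaperones stood higher by mean level: 7 of 14 heat shock chaperones were at least 2-fold higher and none lower (median 0.83). By the score of this list all 7 X-named cells lay within the range of other AAS cells, and by share of reads 1 lay above it. Over isotonic cells the list had a median of 0.57 in X-named cells and of −0.28 in other AAS cells. All genes compared stood at 0.30 and 0.76. The Hsp70 SSA1 had 959, 2347 and 10662 CPM in X-named cells and 225, 990 and 3536 CPM in other AAS cells (1.56), and the co-chaperone STI1 had 173, 1277 and 5455 CPM in X-named cells and 9.92, 210.9 and 3346 CPM in other AAS cells (1.70). The cell D97X was highest for both; without it the log2 fold changes were 0.96 and 1.15, and the median of the list was 0.61.

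Glycolytic transcripts, the most abundant in these cells, took 3.82%, 9.06% and 14.6% of reads in X-named cells and 3.73%, 4.81% and 8.12% in other AAS cells, against 7.27%, 14.2% and 34.3% in isotonic cells. Of 16 genes 6 were higher and 1 lower (median 0.39), against 10.7% of all genes higher and 27.7% lower. TDH3, the main glyceraldehyde-3-phosphate dehydrogenase, had 10744, 24449 and 41372 CPM in X-named cells and 6215, 10319 and 17902 CPM in other AAS cells (1.01), ENO2 had 2492, 9911 and 23484 CPM in X-named cells and 3072, 4879 and 9272 CPM in other AAS cells (1.15), and GPM1 had 4899, 10691 and 18347 CPM in X-named cells and 1925, 4059 and 7782 CPM in other AAS cells (1.27). Without D95X and D96X the values for TDH3 and ENO2 were 0.67 and 0.66, under 2-fold. The isoenzyme ENO1, at 0.54, did not reach 2-fold, and the gene that was lower was PGK1 (−1.14).

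Of 20 autophagy genes 13 were lower in X-named cells and none higher (median −1.14), against 27.7% of all genes lower and a median of −0.32, with a share of reads of 0.0255%, 0.0757% and 0.187% in X-named cells and 0.152%, 0.2147% and 0.278% in other AAS cells. ATG9, a membrane protein of the growing autophagosome, had reads in 4 of 7 X-named and 13 of 13 other AAS cells and levels of 0, 2.20 and 210 CPM in X-named cells and 56.9, 244 and 624 CPM in other AAS cells (−2.29), while the kinase ATG1 had a log2 fold change of 0.05. Autophagy genes were higher than in isotonic cells in both groups (median 1.61 in X-named and 2.10 in other AAS cells, against 0.30 and 0.76 for all genes). When D95X and D96X were left out, 7 of the 20 were lower (median −0.75), against 26.8% of all genes. Proteasome genes had 5 of 32 higher and 2 lower (median 0.52), with 1.43%, 1.51% and 2.07% of reads in X-named cells and 0.843%, 1.19% and 1.58% in other AAS cells, and 1 of 11 genes of vacuolar proteases and their inhibitors was lower (median 0.37). Nuclear-encoded respiratory chain genes had 1 of 34 higher and 4 lower (median 0.08). The share of all genes compared that were higher was 10.7%.

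Cell cycle genes were low and rested on single cells. None of 8 histone genes reached 2-fold (median 0.17), but without D26X, which held the highest histone share of the 20 AAS cells at 0.542%, the median was −1.35 and 5 genes were lower. HTA2, a histone H2A gene, stood at 953 CPM in D26X and had 0, 41.2 and 953 CPM in X-named cells and 0.224, 100.87 and 473 CPM in other AAS cells. G1 and S phase genes had 1 of 11 higher and 5 lower (median −0.65), G2 and M phase genes 5 of 10 lower (median −1.21), and early G1 genes 2 of 10 higher and 5 lower (median −0.99), against 10.7% of all genes higher and 27.7% lower. The median of the G2 and M phase genes was −2.25 without D93X and −0.45 without D23.

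Over all genes, 631 reached 2-fold higher and 1633 reached 2-fold lower levels in X-named cells, and 613 and 1580 without D95X and D96X. Of the calls 27.9% were thus higher, against 12.5% when the fold change was taken as a difference of mean log2(CPM + 1), 14.9% without the highest cell of each group and 42.5% with the number of genes detected as a covariate. Among genes with a mean of at least 100 CPM, 9.28% of 2415 were higher and 19% lower, with a median of −0.20. Few genes separated the groups in every cell. Besides NUG1, the 2 others higher in all X-named cells were IPP1, the inorganic pyrophosphatase, with 1536, 1882 and 2553 CPM in X-named cells and 550, 974 and 1266 CPM in other AAS cells (1.17), and ARC1, a cofactor of methionyl- and glutamyl-tRNA synthetases, with 447, 852 and 1625 CPM in X-named cells and 3.07, 167 and 277 CPM in other AAS cells (2.39). The gene lower in all X-named cells (0.0169% of genes) was YRF1-7, a subtelomeric helicase of a family of near-identical copies, with 8 summed reads in X-named cells and 260 in other AAS cells, which is uncertain for that reason. With D26X set aside, 11 genes lay higher in each of D91X to D97X (0.186%) and 6 lower (0.102%). The 11 were IPP1, NUG1, ARC1, OLA1, YDL124W, RPL12B, RPL17A, TDH2, STM1, SEC13 and TPM1, and the 6 were MET1, STR3, ADE2, YAP3, OSH2 and YRF1-7. These genes were named after their values were seen.

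The 10 lowest genes under the same rule as the 10 highest were TOS3 (−5.50), YHR210C (−5.23), MCH2 (−4.93), MCM2 (−4.86), SRO9 (−4.76), CAR1 (−4.61), BZZ1 (−4.50), GAL10 (−4.36), SRB8 (−4.35) and PAU15 (−4.24). TOS3, a kinase that activates Snf1, had 0, 0 and 8.44 CPM in X-named cells and 0, 44.7 and 456 CPM in other AAS cells. MCM2, a subunit of the replicative helicase, had reads in 2 of 7 X-named and 12 of 13 other AAS cells, with 0, 0 and 12.1 CPM in X-named cells and 0, 77.8 and 216.02 CPM in other AAS cells. CAR1, arginase, had 0, 0 and 1.83 CPM in X-named cells and 0, 14.5 and 121 CPM in other AAS cells. Each of the 10 genes had reads in at most 2 of the 7 X-named cells, and D91X, the X-named cell with the most genes detected, held the highest level of the 9 with any read. SRO9 had no read in the 7 X-named cells and 1470 in 5 of the 13 others, with a median of 0 CPM in both groups. The exact Clopper-Pearson 95% intervals for cells with a read overlapped, at 0% to 40.96% in X-named and 13.86% to 68.42% in other AAS cells. By summed reads, with a floor of 3 reads over the X-named cells, it was at least 332-fold lower. Of the 1470 reads 1151 were in D28, at 257 CPM. Without that cell the limit was at least 77.0-fold lower and the log2 fold change −2.96. Both limits describe reads from few cells, which are not independent, and do not measure a difference between the groups. GAL10 overlaps the noncoding gene YNCB0008W by 1548 bases. Use of strand was not stated, so it is uncertain how reads of this overlap were assigned. STL1, a glycerol transporter among the genes chosen from earlier results, had 0, 40.9 and 175 CPM in X-named cells and 25.1, 665 and 2869 CPM in other AAS cells (−4.01), and 4 of the 10 genes so chosen were lower and 1 higher (median −0.33). Of all genes compared, 27.7% were lower and 10.7% higher.

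**Figure D4:**
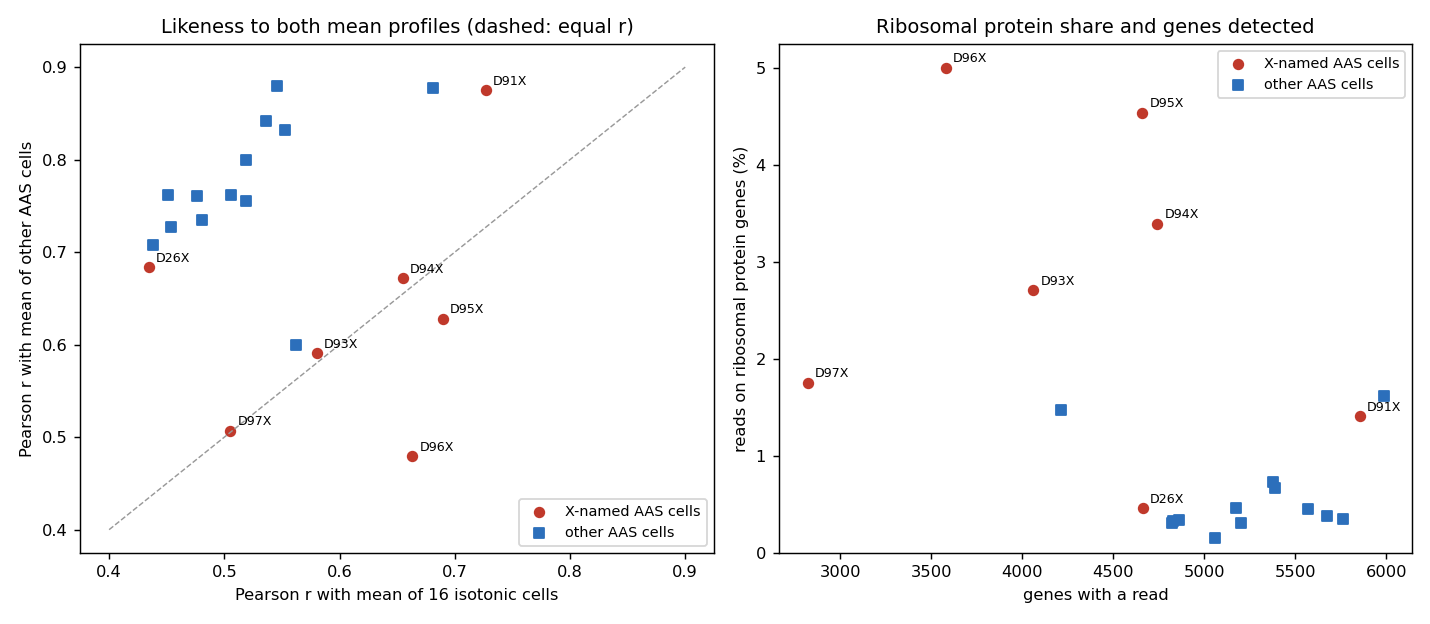
Left, Pearson r over genes of each AAS cell's log2(CPM + 1) with the mean of the 16 isotonic cells (x axis) and with the mean of the 13 other AAS cells (y axis, the cell itself left out); cells under the dashed line are nearer to the isotonic mean. Right, share of reads on ribosomal protein genes (%) against genes with a read; D95X and D96X lie highest and D97X has the fewest genes.

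Whole profiles gave the same graded picture. The 13 other AAS cells were each nearer to the mean of the other AAS cells than to that of the isotonic cells, by a difference in r of 0.037 (D28) to 0.333. In X-named cells the difference was 0.249 in D26X and 0.148 in D91X, near 0 in D94X (0.017), D93X (0.011) and D97X (0.0018), and negative in D95X (−0.062) and D96X (−0.184). X-named cells were also less alike: the median r between cells was 0.485 over 21 pairs within the X-named cells, 0.629 over 78 pairs within the other AAS cells and 0.506 over the 91 pairs between the groups. D91X, with 5856 genes detected, had an r of 0.875 with the mean of the other AAS cells and of 0.727 with the isotonic mean, and D97X, with 2820 genes, had 0.507 and 0.505. The number of genes was 3581 in D96X, 4663 in D26X, 4743 in D94X and 4659 in D95X. The part of gene detection in these values was not tested.

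An X also ended the names of 2 isotonic cells of the same batch, E10X and E11X, which share no cell with the AAS comparison. All hypotonic cells of the batch carried an X as well, and these were not used here. Their ribosomal protein shares were 10.6% and 5.52%, within the 4.10% to 19.5% of the 14 isotonic cells without an X, and their sulfate assimilation shares were 1.082% and 1.06%, within 0.394% to 3.03%. Glycolysis took 14.8% and 9.91%, within 7.27% to 34.3%. E11X lay just below the others for elongation factors, at 1.27% against a lowest share of 1.34%. The number of genes detected, 4211 and 4088, lay within 1816 to 5679. Set as a fold change over the 14, 14 of the 20 sulfate assimilation genes were lower and 1 higher in E10X and E11X (median −1.57), and 16 of 137 ribosomal protein genes were lower and 2 higher (median −0.32), where 46.8% of all genes were lower and 20.2% higher, with a median of −0.80. With 2 cells on a side, these are values only.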

How the data were processed

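Single spheroplasts were reverse transcribed with oligo-dT primers, amplified and made into libraries with a Nextera XT or a TruSeq DNA kit. The kit used for each cell is not given. The authors aligned the reads to the R64 genome with STAR 2.5.2 and deposited, per cell, read counts per gene made with HTSeq at default settings from uniquely mapped reads; RSEM 1.2.31 is also named but its TPM values were not used here. Each file held 6420 gene entries, 92 ERCC spike-in entries and 5 summary entries. The summary entries include ambiguous reads. Whether counting used strand was not stated, so it is uncertain how reads in overlapping genes were assigned. The 39 batch 1 files of AAS and isotonic cells were used and 78 others were not.

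CPM was computed over gene entries only, with equal weight per cell. A gene entered a comparison when 20% or more of its cells held a read, which is 4 of the 20 AAS cells. Group values are means of CPM, the fold change is the log2 ratio after adding 1 CPM, and at least 2-fold is called. No labels name separate cultures, so no tests were run; spread over cells, cell pairs, exact Poisson and Clopper-Pearson intervals (95%) describe the values. No 2 cells held identical counts. The files' IDs were matched to RefSeq gene entries of R64 (6019 matched); promoter windows and their motifs were read from the same annotation. The fold measures and the thinning were tested on simulated data with changes planted in abundant genes. That test did not cover genes read in few cells or the other steps.

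Genes named are the 10 highest and 10 lowest fold changes that stayed at least 2-fold without the highest cell of each group and without D95X and D96X, up to 4 of the most abundant members of each list, and SUL1, MHT1, MET3, MET17, HSP12, GRE1 and GCN4; others are said to be chosen after their values were seen. A few names in the lists were corrected once the files could be read. The members and lists were chosen with earlier results of these data known. Besides leaving out each cell, the alternatives were other pseudocounts (0.1 and 10 CPM), summed reads, TMM (edgeR 4.0.16) and DESeq2 1.42.0 size factors as scaling, thinning to 100000 and 3000000 reads, other filters, and gene detection as a covariate. Python 3.11.15, pandas 2.3.3, SciPy 1.17.1, matplotlib 3.10.9 and R 4.3.3 were used.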

Additional observations from a re-analysis of the deposited data

Results flagged for a closer look

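Among the list scores and library measures of the 7 X-named cells, 2 of 38 sets of values held a cell far from the rest by Dixon's criterion at 95%, and chance alone gives about 1 in 20. The RNA polymerase I score, the mean of log2(CPM + 1) over its 8 genes, was 5.34 in D91X and 1.40 to 2.56 in the other 6 X-named cells. D91X was also the X-named cell with the most genes detected, and the part of this in its score was not tested. The heat shock chaperone score was 6.38 in D26X and 8.38 to 9.46 in the other 6, while other AAS cells spanned 5.49 to 9.79.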

How the results depend on the processing

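The direction of the ribosomal protein, ribosome biogenesis, elongation factor, sulfate assimilation and sulfur uptake medians held under the 17 alternatives tried, with ranges of 1.65 to 2.55, 0.73 to 1.82, 0.92 to 1.63, −1.44 to −0.45 and −1.79 to −0.83. The values of 1.65, 0.92, −0.45 and −0.83 came without D95X and D96X, where the median of all genes was −0.29. The values of −1.44 and −1.79 came as a difference of mean log2(CPM + 1), where the median of all genes was −0.996. The sulfur medians are to be read against these values, since all genes were negative too. The number of genes at least 2-fold lower, 1633, was 2950 as a difference of mean log2(CPM + 1) and 2477 without the highest cell of each group, and the number higher, 631, was 1053 with genes detected as a covariate. Of all calls, 27.9% were higher, against 12.5%, 14.9% and 42.5% under these 3 settings. TMM moved the median of all genes to −0.17. Leaving out 1 cell at a time gave 613 (without D96X) to 664 higher and 1516 (without D97X) to 1971 (without D26X) lower. Single genes turned: RPA49 was −2.05 without D96X and 2.17 without D28, 0.31 as a difference of mean log2 values, 1.27 without the highest cells and 0.40 with the covariate; SOA1 was −1.002 without D97X and 1.70 without D28, and −1.78, −0.67 and −2.90 under the other 3 settings; NDT80, a meiotic regulator, was −0.59 without D97X and 1.39 without D22, and −0.77, −0.34 and −1.59. YEF3 was −0.0066 as a difference of mean log2 values, and BAR1, a marker of mating type a, was 0.50 with the covariate. Without D95X, D96X and D26X, an alternative chosen after seeing the data, 637 genes were higher and 1980 lower. No paired analysis was possible because the cells carry no shared replicate numbers. Few cells limit what detection of rare transcripts can show, and thinning to 100000 reads gave 601 higher and 1570 lower.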

Other observations

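Genes of meiosis and sporulation, which a haploid does not use, took a small share of reads. In other AAS over isotonic cells 7 of 10 were at least 2-fold higher (median 1.84), against 44.3% of all genes (median 0.76). In X-named over isotonic cells 3 of 8 compared were higher and 2 lower (median 0.61), against 31.7% of all genes higher (median 0.30). Their share was 0.000176%, 0.0124% and 0.0887% (lowest, median, highest) in X-named cells and 0.00756%, 0.0341% and 0.0692% in other AAS cells, against a median of 0.00492% in isotonic cells. The kinase gene IME2 had 0, 0 and 84.1 CPM in X-named cells and 0, 119 and 332 CPM in other AAS cells, and ZIP1 had 0, 0 and 78.7 CPM in X-named cells and 0, 62.7 and 179 CPM in other AAS cells. The log2 fold changes were −2.65 and −2.51. Of the 10 genes compared, 1 was at least 2-fold higher and 5 lower in X-named cells (median −0.97). Among all genes 10.7% were higher and 27.7% lower. Other members turned with single cells: NDT80 ran from −0.59 without D97X to 1.39 without D22, and DIT1 from −3.50 without D26X to 1.41 without D24.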
